A study of Homo sapiens with 6 samples.

Results

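The genes described here are 35 genes of the interferon response and of major histocompatibility complex (MHC) class I antigen presentation, out of 30717 genes in the deposited table. They were taken by symbol from the transcript count table: interferon induced genes of the IFIT, OAS, IFITM, MX1, ISG and IFI families, the sensors and transcription factors that act with them, and the class I chains with their peptide supply. RNA had been sequenced from T24 and UMUC3, established human bladder cancer cell lines, in which circPTK2 was knocked down; circPTK2 is circular RNA made from PTK2 exons. There are 4 groups in 6 libraries: T24 with circPTK2 knockdown (2 libraries), T24 control (1 library), UMUC3 with circPTK2 knockdown (2 libraries) and UMUC3 control (1 library). The titles name siRNAs for the knockdowns whereas the design text names sh constructs, and a control reagent is named only as CON. In T24 the siRNA numbers of the titles are swapped in the names of the data columns, and the numbers of the titles are used below. Separate cultures are not stated for any line, so the p-values cover only the spread between these libraries, and that spread may be technical. Each line stands for 1 tumour, so a difference between the lines is a difference between these cells and not between kinds of tumour.

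Interferons are secreted proteins that bind receptors on the cell surface and act through the JAK kinases on transcription factors, STAT2 and IRF9 among them. The interferon-stimulated response element (ISRE) in the promoters of the induced genes is bound by a complex that holds STAT2 and IRF9, while interferon gamma acts mainly at the gamma-activated site (GAS). MHC class I molecules carry peptides to the surface for inspection by CD8 T cells. Their peptides come from the proteasome, of which PSMB8 and PSMB9 are immune-induced subunits, and reach the endoplasmic reticulum through the TAP1 and TAP2 transporter, where TAPBP (tapasin) helps to load them on the heavy chain bound to B2M. Loss of class I molecules is a known way for tumour cells to escape T cells.

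RefSeq promoter windows (GRCh38.p14, from 250 bases before to 50 bases after the start) matched 27 of the 35 genes. An ISRE, searched on both strands as GAAA, any 2 bases and GAAA, with overlaps allowed, was found in 18 of these 27 windows (66.7%), and in 1255 of 35116 windows of all genes (3.57%). A GAS, searched as TTC, any 3 bases and GAA, was found in 6 of the 27 (22.2%) and in 2689 of all windows (7.66%). The members are known interferon targets, so these shares describe the list. The 150 bases before the start are printed for 8 members that the results turn on: genes at like levels in both lines (IFIT1), genes higher in T24 (ISG15, IFITM3, IFI27, B2M, TAP1) and genes lower in T24 (TAP2, IFI44). Capitals mark the ISRE, which begins and ends with TTTC where it lies on the other strand.
IFIT1 (chr10:89392473-89392622, plus strand): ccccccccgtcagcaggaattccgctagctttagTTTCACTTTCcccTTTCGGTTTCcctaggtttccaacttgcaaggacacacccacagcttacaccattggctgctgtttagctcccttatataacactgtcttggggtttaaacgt
ISG15 (chr1:1013347-1013496, plus strand): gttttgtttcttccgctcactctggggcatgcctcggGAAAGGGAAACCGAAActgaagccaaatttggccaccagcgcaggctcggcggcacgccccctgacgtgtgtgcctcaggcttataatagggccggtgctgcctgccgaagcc
IFITM3 (chr11:320861-321010, minus strand): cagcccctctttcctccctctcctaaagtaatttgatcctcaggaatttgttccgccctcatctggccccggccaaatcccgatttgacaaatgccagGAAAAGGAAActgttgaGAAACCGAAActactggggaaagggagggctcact
IFI27 (chr14:94110586-94110735, plus strand): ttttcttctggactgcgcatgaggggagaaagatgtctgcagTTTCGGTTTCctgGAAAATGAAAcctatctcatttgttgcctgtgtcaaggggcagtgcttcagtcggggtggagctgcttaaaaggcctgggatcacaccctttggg
B2M (chr15:44711367-44711516, plus strand): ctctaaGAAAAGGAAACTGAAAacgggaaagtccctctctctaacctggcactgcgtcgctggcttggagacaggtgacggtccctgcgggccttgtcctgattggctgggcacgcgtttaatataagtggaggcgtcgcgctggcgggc
TAP1 (chr6:32853705-32853854, minus strand): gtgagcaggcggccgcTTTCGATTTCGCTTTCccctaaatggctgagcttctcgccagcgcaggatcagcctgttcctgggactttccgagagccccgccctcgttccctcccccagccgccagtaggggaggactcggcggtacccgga
TAP2 (chr6:32838740-32838889, minus strand): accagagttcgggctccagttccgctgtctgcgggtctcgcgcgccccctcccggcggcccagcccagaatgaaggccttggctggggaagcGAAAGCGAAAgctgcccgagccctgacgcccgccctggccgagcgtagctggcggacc
IFI44 (chr1:78649639-78649788, plus strand): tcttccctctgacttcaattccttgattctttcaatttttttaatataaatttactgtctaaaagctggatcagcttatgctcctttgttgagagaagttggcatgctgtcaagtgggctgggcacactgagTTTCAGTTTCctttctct
The first ISRE of IFIT1 began 116 bases before the start, that of ISG15 113 bases before it and that of TAP1 134 bases before it. In the stretches of ISG15, B2M and TAP1 a pair of ISREs overlap.

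The libraries held 65111683 to 72362436 counts, of which 55071837 to 60780176 fell in genes with a name. All 35 members passed the filter on low counts. Levels are CPM, each library's counts scaled to a common total with TMM factors. In bulk RNA, fewer cells expressing a gene and less RNA per cell cannot be told apart. The summed CPM of 12 urothelial and epithelial markers (11 in the table) was 3128 to 3349 in T24 and 174 to 192 in UMUC3. The keratin KRT19, a defining epithelial marker, stood at 511 to 543 CPM in T24 and at or below 0.263 CPM in UMUC3, and CDH1, UPK1B and UPK2 were at or below 0.202 CPM in all 6 libraries. The leukocyte markers (8 of 12 in the table) summed to 15.0 to 18.6 CPM in T24 and 29.2 to 54.8 CPM in UMUC3, where CD68, a lysosomal protein gene, made up 28.2 to 54.1 CPM and PTPRC was at 0. The fibroblast and endothelial markers (4 of 6 in the table) summed to 65.3 to 76.9 CPM in T24 and 1.71 to 2.39 CPM in UMUC3. Nearly all of the sum in T24 was CDH5, at 64.5 to 75.5 CPM, which had 0 counts in UMUC3.

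Most members were higher in T24 than in UMUC3. No member passed the threshold for the knockdown, but with 1 control library a line the test within a line made no calls on simulated counts either, so the lack of calls does not show that levels were alike. Between the lines (3 T24 against 3 UMUC3 libraries, knockdown as a second term), edgeR's quasi-likelihood test called 24 of the 35 members (68.6%) at an adjusted p under 0.05, where it called 40.2% of all 20721 genes tested. Of the members, 20 were higher and 4 lower in T24, against 21.3% and 18.9% of all genes. At an unadjusted p under 0.05 there were 27 members (77.1%) against 49.9% of all genes, and DESeq2 called 26 (74.3%) against 47.1%. The median log2 fold change, T24 over UMUC3, was 1.16 over the members and 0.02 over all genes. In 21 members every T24 library lay above every UMUC3 library (27.2% of all genes did so) and in 5 every T24 library lay below (25.1%).

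**Figure D1:**
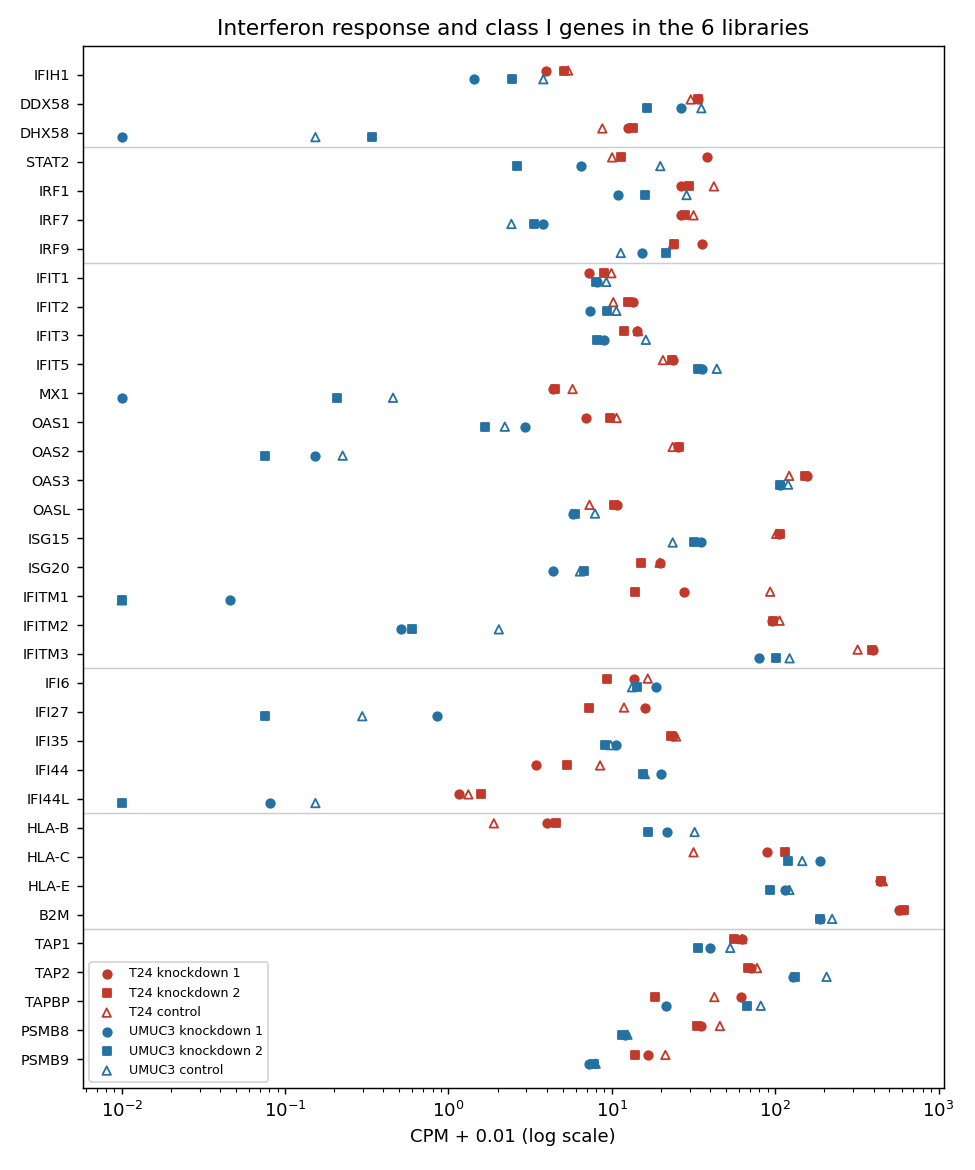
CPM + 0.01 on a log axis for the 35 members in the 6 libraries, T24 in red and UMUC3 in blue. Filled marks are knockdown libraries and open triangles are controls, and grey lines part the roles (sensors, transcription factors, effectors, other induced genes, class I chains, peptide supply). Points at 0.01 are libraries with 0 counts. OAS2, IFITM1 and IFITM2 show the widest gaps between the lines, while IFIT1, IFIT2, IFIT3 and OAS3 lie close together.

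Among the sensors of viral RNA, the lines differed in DHX58 (LGP2), which modulates the other sensors. DHX58 had 12.5, 13.4 and 8.73 CPM in T24 (knockdown 1, knockdown 2, control) against 0, 0.329 and 0.143 CPM in UMUC3. The 28 counts of DHX58 in UMUC3 lie far below the 2063 in T24, a log2 fold change of 6.14 ± 0.51 (SE; edgeR adjusted p = 0.000393). DDX58 (RIG-I), the sensor of RNA with a 5′ triphosphate, averaged 32.6 ± 1.91 CPM in T24 and 26.1 ± 9.46 CPM in UMUC3 (SD, n = 3 each), and the libraries overlapped. IFIH1 (MDA5), which senses long double-stranded RNA, averaged 4.81 ± 0.77 CPM in T24 and 2.55 ± 1.19 CPM in UMUC3 (SD, n = 3 each). Its libraries did not overlap, but its edgeR adjusted p was 0.057, while it passed in DESeq2 (adjusted p = 0.022).

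Of the transcription factors, IRF7, IRF1 and IRF9 were higher in T24 and STAT2 was not called. IRF7, which drives interferon alpha genes, had 26.6, 28.1 and 31.6 CPM in T24, in the same order of libraries, against 3.78, 3.32 and 2.42 CPM in UMUC3. All T24 libraries lay above all UMUC3 libraries, with a log2 fold change of 3.19 ± 0.24 (edgeR adjusted p = 0.000387). IRF1, a factor that acts at class I and other promoters, had 26.4, 29.8 and 42.2 CPM in T24 and 10.9, 15.9 and 28.7 CPM in UMUC3. The UMUC3 control lay within the T24 range, and the log2 fold change was 0.89 ± 0.22 (edgeR adjusted p = 0.0237). IRF9, the DNA-binding partner of STAT2, had 35.5, 23.9 and 23.6 CPM in T24 and 15.4, 21.5 and 11.3 CPM in UMUC3 (log2 0.81 ± 0.24, edgeR adjusted p = 0.044). STAT2 had 38.2, 11.4 and 10.03 CPM in T24 and 6.47, 2.63 and 19.8 CPM in UMUC3. The high T24 value was that of knockdown 1 alone, the lines overlapped, and the edgeR adjusted p was 0.327. The call of IRF1 was lost when any 1 of the 4 knockdown libraries was left out (log2 0.70 to 1.20 and edgeR or DESeq2 adjusted p up to 0.0754 over all alternatives). The call of IRF9 was lost without any 1 library other than T24 knockdown 2. It was also lost in the fit on highest transcripts. The leading coding transcript of IRF9 had 708, 649 and 764 counts in T24 and 410, 980 and 167 counts in UMUC3.

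The effectors split into genes near absent from UMUC3, genes a few times higher in T24, genes at similar levels, and IFIT5, which was lower in T24. In the first set, OAS2, a synthetase of the 2-5A signal that activates RNase L, had 25.4, 25.8 and 23.6 CPM in T24 and 0.143, 0.066 and 0.215 CPM in UMUC3. This was a log2 fold change of 7.46 ± 0.33 (edgeR adjusted p = 3.8e-05), with 24 counts in all UMUC3 libraries and 4444 in T24. OAS2 is thus close to the floor in UMUC3, while its neighbours on chromosome 12 are not.

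OAS3 averaged 143 ± 18.6 CPM in T24 and 112 ± 7.21 CPM in UMUC3 (SD, n = 3 each; edgeR adjusted p = 0.0906). OAS1 had 6.91, 9.67 and 10.7 CPM in T24 and 2.94, 1.68 and 2.20 CPM in UMUC3 (log2 1.99 ± 0.31, edgeR adjusted p = 0.00477). All 3 genes lie between 112906777 and 113011723 on chromosome 12 (GRCh38, GENCODE 29). They overlap the antisense gene AC004551.1, whose reads cannot be told apart from theirs because the sources used here do not say whether strand was kept. OASL, a relative without synthetase activity, averaged 9.47 ± 1.90 CPM in T24 and 6.52 ± 1.18 CPM in UMUC3 (SD, n = 3 each; edgeR adjusted p = 0.159). Both OAS3 and OASL were called higher in T24 when either control library was left out (adjusted p down to 0.0126 for OAS3 and 0.0282 for OASL).

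IFITM1, IFITM2 and IFITM3 encode membrane proteins that restrict viral entry, and lie next to each other on chromosome 11 between 307631 and 327537. IFITM1 had 27.8, 13.9 and 93.2 CPM in T24. Its UMUC3 libraries held 2 counts in knockdown 1 and 0 in the others, against 8012 counts over the T24 libraries. The ratio of the pooled levels was 3882, with an exact 95% interval of 1074 to 32060 that covers counting error only (edgeR adjusted p = 0.000661). IFITM2 had 95.9, 96.9 and 106 CPM in T24 and 0.499, 0.591 and 2.02 CPM in UMUC3 (log2 6.69 ± 0.39, edgeR adjusted p = 0.00018). IFITM3 had 399, 391 and 320 CPM in T24 and 79.6, 101 and 123 CPM in UMUC3 (log2 1.88 ± 0.19, edgeR adjusted p = 0.00122). The 3 genes are related in sequence, so reads could be split between them and their separate values are uncertain. IFITM2 as annotated also spans IFITM1 on the same strand.

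MX1, a GTPase that blocks influenza and other viruses, had 4.37, 4.51 and 5.74 CPM in T24 and 0, 0.197 and 0.448 CPM in UMUC3 (log2 4.52 ± 0.53, edgeR adjusted p = 0.00168). ISG15, a ubiquitin-like modifier, had 106, 106 and 102 CPM in T24 and 35.4, 31.8 and 23.6 CPM in UMUC3 (log2 1.81 ± 0.15, edgeR adjusted p = 0.000585). ISG20, an exonuclease, had 19.6, 15.1 and 19.6 CPM in T24 and 4.37, 6.77 and 6.37 CPM in UMUC3 (edgeR adjusted p = 0.00425). These 3 genes thus had T24 libraries above all UMUC3 libraries.

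The IFIT genes, which encode proteins that bind foreign RNA, did not follow that order. IFIT1 averaged 8.69 ± 1.37 CPM in T24 and 8.43 ± 0.70 CPM in UMUC3 (SD, n = 3 each), with a log2 fold change of 0.04 ± 0.19 (edgeR adjusted p = 0.892). IFIT2 (0.41 ± 0.24) and IFIT3 (0.35 ± 0.24) had edgeR adjusted p values of 0.219 and 0.285. IFIT5, which has 1 transcript in the table, was lower in T24, with 23.7, 23.3 and 20.6 CPM against 35.5, 33.6 and 43.9 CPM in UMUC3 (log2 -0.74 ± 0.17, edgeR adjusted p = 0.02). The libraries of the lines did not overlap, but the call was lost without T24 knockdown 1, T24 knockdown 2 or UMUC3 knockdown 1, and in the fit on highest transcripts (adjusted p up to 0.0612 over all alternatives). IFIT1, IFIT2 and IFIT3 overlap LIPA on the opposite strand.

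Among the other induced genes, IFI27, IFI35 and IFI44L were higher and IFI44 lower in T24. IFI27, a mitochondrial and nuclear protein gene, had 15.9, 7.20 and 11.9 CPM in T24 and 0.838, 0.066 and 0.287 CPM in UMUC3 (log2 4.90 ± 0.66, edgeR adjusted p = 0.00305). IFI44L had 1.14, 1.58 and 1.31 CPM in T24 and 0.0713, 0 and 0.143 CPM in UMUC3, from 240 counts in T24 and 12 in UMUC3 (log2 4.24 ± 0.65, edgeR adjusted p = 0.0019). Its neighbour on chromosome 1, IFI44, went the other way. IFI44 had 3.43, 5.28 and 8.47 CPM in T24 and 20.0, 15.4 and 15.9 CPM in UMUC3 (log2 -1.64 ± 0.33, edgeR adjusted p = 0.0121), with no overlap between the lines. IFI35, a partner of NMI, had 23.6, 23.0 and 24.7 CPM in T24 and 10.7, 9.12 and 9.83 CPM in UMUC3 (edgeR adjusted p = 0.0027). IFI6, a mitochondrial and endoplasmic reticulum protein gene, was not called (13.2 ± 3.66 CPM in T24 and 15.4 ± 2.88 CPM in UMUC3, SD, n = 3 each; edgeR adjusted p = 0.549).

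**Figure D2:**
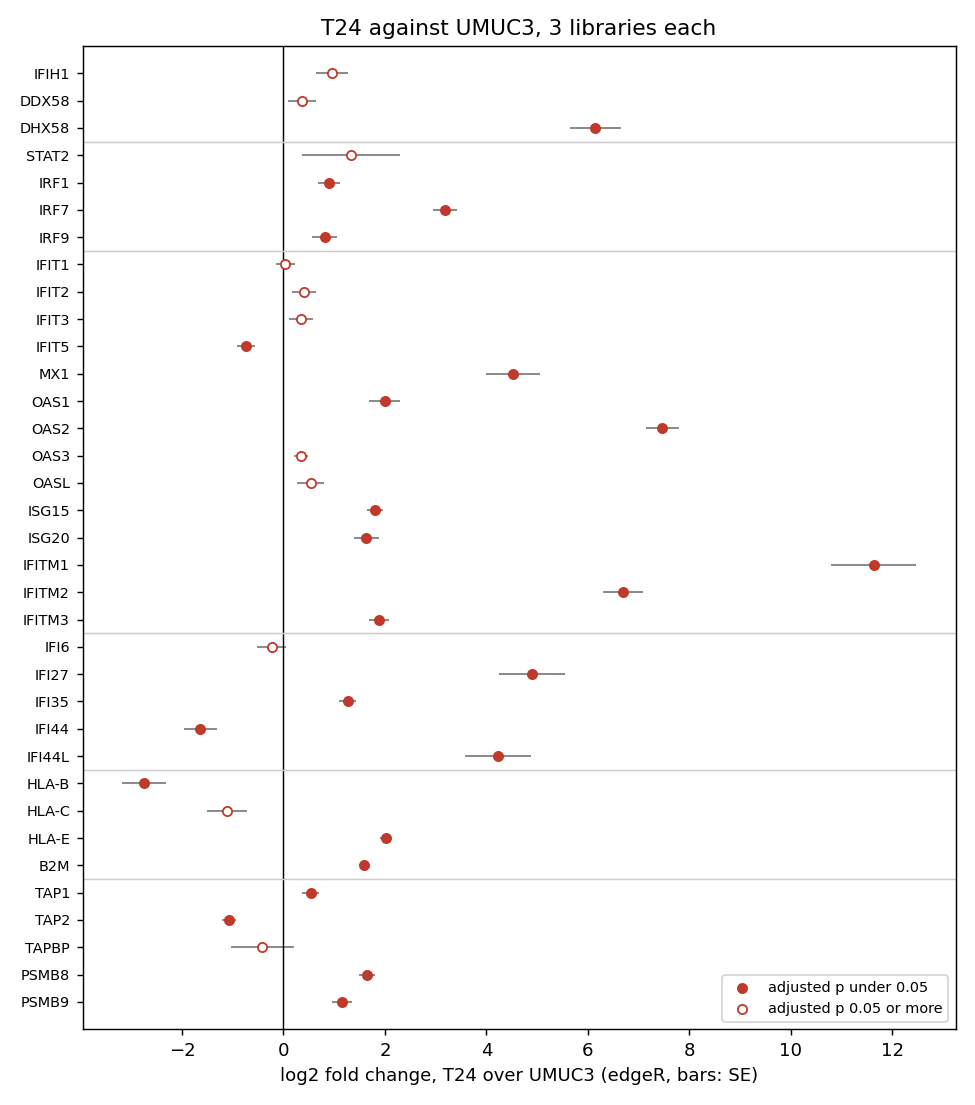
Log2 fold change, T24 over UMUC3, with its SE from edgeR (3 libraries of each line, knockdown as a second term), for the 35 members in the order of their roles. Filled points passed an adjusted p of 0.05: 20 members lie right of 0 and 4 (IFIT5, IFI44, HLA-B, TAP2) lie left of it. The IFITM1 value rests on 2 UMUC3 counts.

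The class I chains moved apart: B2M and HLA-E were higher in T24, while HLA-B was lower. B2M, the invariant light chain, had 575, 619 and 591 CPM in T24 and 188, 188 and 223 CPM in UMUC3 (log2 1.58 ± 0.10, edgeR adjusted p = 0.00022). HLA-E, a non-classical heavy chain seen by NK cell receptors, had 440, 445 and 456 CPM in T24 and 115, 93.3 and 122 CPM in UMUC3 (log2 2.03 ± 0.12, edgeR adjusted p = 0.000178). HLA-B, a classical heavy chain, had 4.001, 4.56 and 1.89 CPM in T24 and 21.7, 16.7 and 32.1 CPM in UMUC3. Each T24 library lay below each UMUC3 library (log2 -2.74 ± 0.43, edgeR adjusted p = 0.00509). HLA-C had 88.6, 114 and 31.6 CPM in T24 and 187, 120 and 146 CPM in UMUC3. Its libraries did not overlap, but the log2 fold change of -1.12 ± 0.40 had an edgeR adjusted p of 0.0745. It passed in DESeq2 (adjusted p = 0.0274) and in edgeR without UMUC3 knockdown 2. It also passed in edgeR on its highest transcript alone. That transcript was picked by its total counts and had 0 counts in T24, so this pass followed from the choice and adds no support.

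No T24 count of HLA-B or HLA-C lay in the coding transcript that leads in UMUC3. In UMUC3, 58.7% of the 4026 HLA-B counts fell in the coding transcript ENST00000412585. In T24 that transcript had 0 of 621 counts, which allows a share of up to 0.483% (3 counts, counting error only). For HLA-C, the coding transcript ENST00000376228 held 81.2% of 26007 counts in UMUC3, and 0 of 13946 in T24, which allows up to 0.0215%. Most T24 counts of HLA-B lay in retained-intron transcripts, led by ENST00000497377 with 53.8%, 54.2% and 46.4% in knockdown 1, knockdown 2 and control. All coding transcripts of HLA-B together held 11, 7 and 12 counts in the T24 libraries, against 1114, 575 and 963 in the UMUC3 libraries.

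HLA-C coding transcripts held 2250 counts in T24 knockdown 1, all in ENST00000383329, and 0 counts in T24 knockdown 2 and in the T24 control. In UMUC3 they held 8535, 5958 and 6631 counts. HLA-E and B2M showed no such split: coding transcripts of HLA-E had 435, 438 and 437 CPM in T24 and 108, 87.5 and 119 CPM in UMUC3. Coding transcripts of B2M had 529, 544 and 550 CPM in T24 and 167, 171 and 191 CPM in UMUC3. HLA-B and HLA-C differ between people at many bases, share long stretches with each other, and overlap in the annotation on chromosome 6. The authors assigned the counts, and the part of sequence differences from the reference in these shares was not tested. The level of HLA-B and HLA-C in T24 is therefore uncertain.

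**Figure D3:**
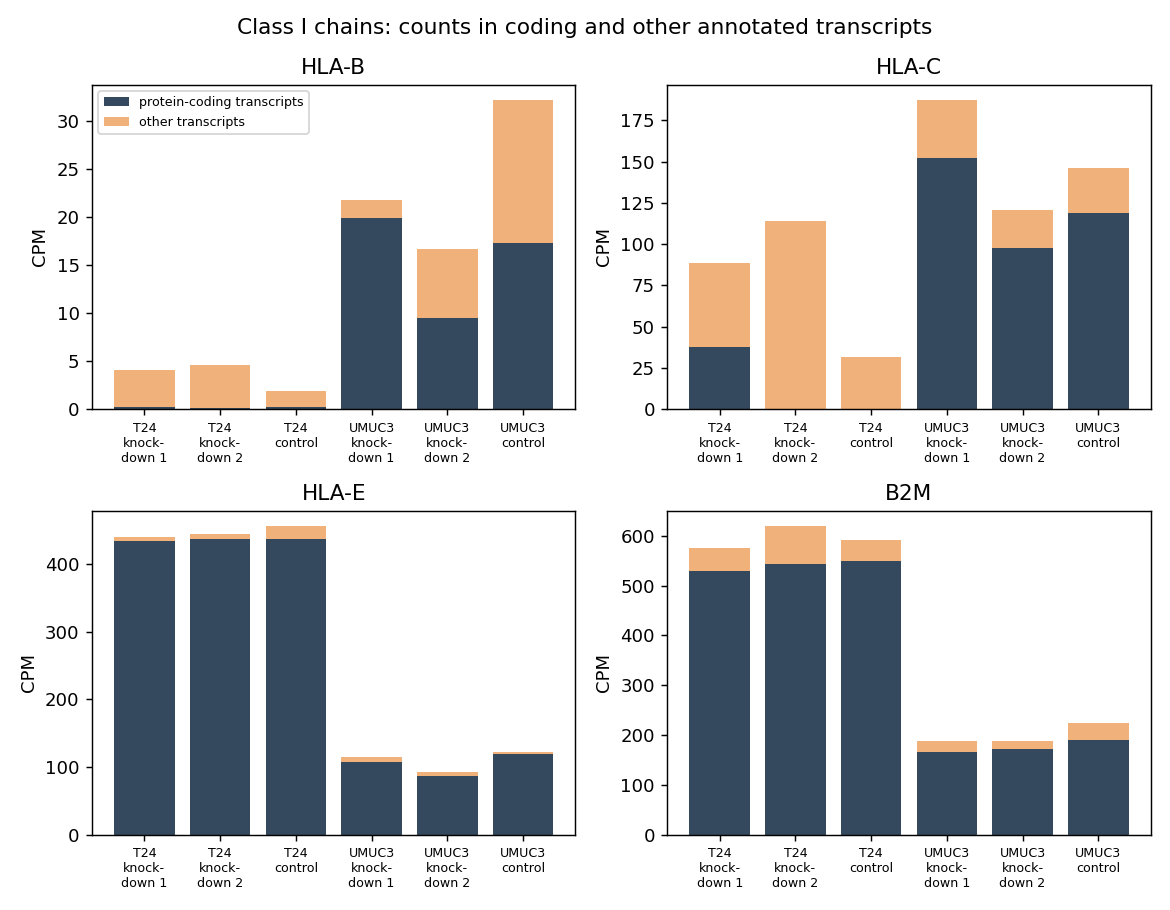
CPM of HLA-B, HLA-C, HLA-E and B2M in the 6 libraries, split into protein-coding transcripts (dark) and other annotated transcripts (light). In T24 the HLA-B bars and 2 of the 3 HLA-C bars are almost wholly light, while the HLA-E and B2M bars are mostly dark in both lines.

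In the peptide supply, both immune subunits of the proteasome were higher in T24 and the transporter genes went in opposite directions. PSMB8 had 34.95, 33.2 and 45.9 CPM in T24 and 12.1, 11.5 and 12.5 CPM in UMUC3 (log2 1.65 ± 0.16, edgeR adjusted p = 0.00102). PSMB9 had 16.8, 13.8 and 21.3 CPM in T24 and 7.27, 7.74 and 7.95 CPM in UMUC3 (log2 1.16 ± 0.20, edgeR adjusted p = 0.0067). Both groups of T24 values lay above all UMUC3 values. TAP2 had 71.5, 68.1 and 77.4 CPM in T24 and 129, 132 and 207 CPM in UMUC3, lower in each T24 library (log2 -1.07 ± 0.14, edgeR adjusted p = 0.0029). TAP1 had 62.6, 56.2 and 62.6 CPM in T24 and 40.1, 33.5 and 53.1 CPM in UMUC3 (log2 0.54 ± 0.16, edgeR adjusted p = 0.046). That call was lost without any 1 of the 4 knockdown libraries. TAPBP had 61.6, 18.3 and 42.4 CPM in T24 and 21.4, 67.0 and 81.6 CPM in UMUC3, spread too wide for a call (edgeR adjusted p = 0.63). TAP1, TAP2, PSMB8 and PSMB9 lie between 32821833 and 32859585 on chromosome 6. PSMB9 overlaps PSMB8 and TAP1 on the opposite strand, and PSMB8-AS1 overlaps 3 of these 4 genes, so their reads cannot be told apart where they overlap.

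Per kilobase of transcript (lengths weighted by each transcript's counts), IFITM3 was the most abundant member in both lines, with a mean of 459 CPM per kb in T24 and 125 CPM per kb in UMUC3. B2M followed with 358 CPM per kb in T24 and 120 CPM per kb in UMUC3. HLA-E was next in T24 at 175 CPM per kb, then ISG15 at 147 and IFITM2 at 137 CPM per kb. In UMUC3 HLA-C came after B2M at 106 CPM per kb, followed by HLA-E at 43.1 and ISG15 at 42.5 CPM per kb. IFITM2, at 1.43 CPM per kb, was among the low members in UMUC3.

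By call between the lines, the ISRE was found in 9 of the 15 promoters matched to members higher in T24, in 3 of the 4 of members lower in T24 and in 6 of the 8 of members not called. A GAS was found in 6 of the 15 promoters of members higher in T24 (IRF1, IRF9, OAS1, IFITM1, IFI27, IFI35) and in none of the other 12 matched. Of all windows 3.57% held an ISRE and 7.66% a GAS. The groups are small, the split follows the calls, and it was not tested. The calls of IRF9, IRF1 and OAS1 were lost in 9, 4 and 1 of 14 alternatives. The windows of HLA-B, HLA-C, STAT2, PSMB8 and PSMB9 held neither motif.

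In T24, HLA-C and HLA-B were higher and IFITM1 lower in both knockdown libraries than in the control, and no member passed the main test. EdgeR, with little power in this design, called 0 of 35 members and 0.135% of all genes, with 4 members (11.4%) at an unadjusted p under 0.05 against 12.5% of all genes. DESeq2, an alternative, called 3 members (8.57%) against 4.73% of all genes. The median log2 fold change was -0.07 over the members and 0 over all genes. In 13 members (37.1%) both knockdown libraries lay above the control and in 17 (48.6%) below it, where 34.7% and 37.3% of all genes did. The edgeR call count of all genes was 28, and 0 when any of the 4 knockdown libraries was left out. The control is a single library, assumed to vary like the knockdown pairs.

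IFITM1 had 27.8 and 13.9 CPM in the T24 knockdown libraries against 93.2 CPM in the control, a log2 fold change of -2.16 ± 0.43 (edgeR adjusted p = 0.166, DESeq2 adjusted p = 0.0176). HLA-C had 88.6 and 114 CPM in knockdown libraries against 31.6 CPM in the control (1.68 ± 0.37, edgeR adjusted p = 0.234, DESeq2 adjusted p = 0.0016). HLA-B had 4.001 and 4.56 CPM against 1.89 CPM in the control (1.18 ± 0.34, edgeR adjusted p = 0.31, DESeq2 adjusted p = 0.0325). The coding transcripts of HLA-B did not show this: they had 0.185 and 0.118 CPM in knockdown libraries and 0.202 CPM in the control. Those of HLA-C had 37.8 and 0 CPM in the knockdown libraries and 0 CPM in the control. Summed mitochondrially encoded RNA, listed as a sign of RNA quality, was also higher in T24 knockdown libraries (30430 and 31840 CPM, against 24020 CPM in the control), and its part in these values was not tested.

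Other members with a mean of at least 5 CPM and both T24 knockdown libraries on 1 side of the control had smaller differences or wider spread. IFI44 had 3.43 and 5.28 CPM against 8.47 CPM in the control (-0.96 ± 0.36, edgeR adjusted p = 0.409). IRF1 had 26.4 and 29.8 CPM against 42.2 CPM (-0.59 ± 0.27, edgeR adjusted p = 0.481), and IFI6 had 13.8 and 9.32 CPM against 16.6 CPM in the control (-0.52 ± 0.34, adjusted p = 0.588). On the higher side, DHX58 had 12.5 and 13.4 CPM against 8.73 CPM in the control (0.57 ± 0.46, edgeR adjusted p = 0.667), and OASL had 10.8 and 10.3 CPM against 7.29 CPM (0.54 ± 0.22, adjusted p = 0.442). STAT2 had 38.2 and 11.4 CPM against 10.03 CPM in the control (1.304 ± 0.98, edgeR adjusted p = 0.651). B2M (575 and 619 CPM against 591 CPM in the control) and HLA-E (440 and 445 CPM against 456 CPM) had log2 fold changes of 0.01 ± 0.09 and -0.04 ± 0.15.

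**Figure D4:**
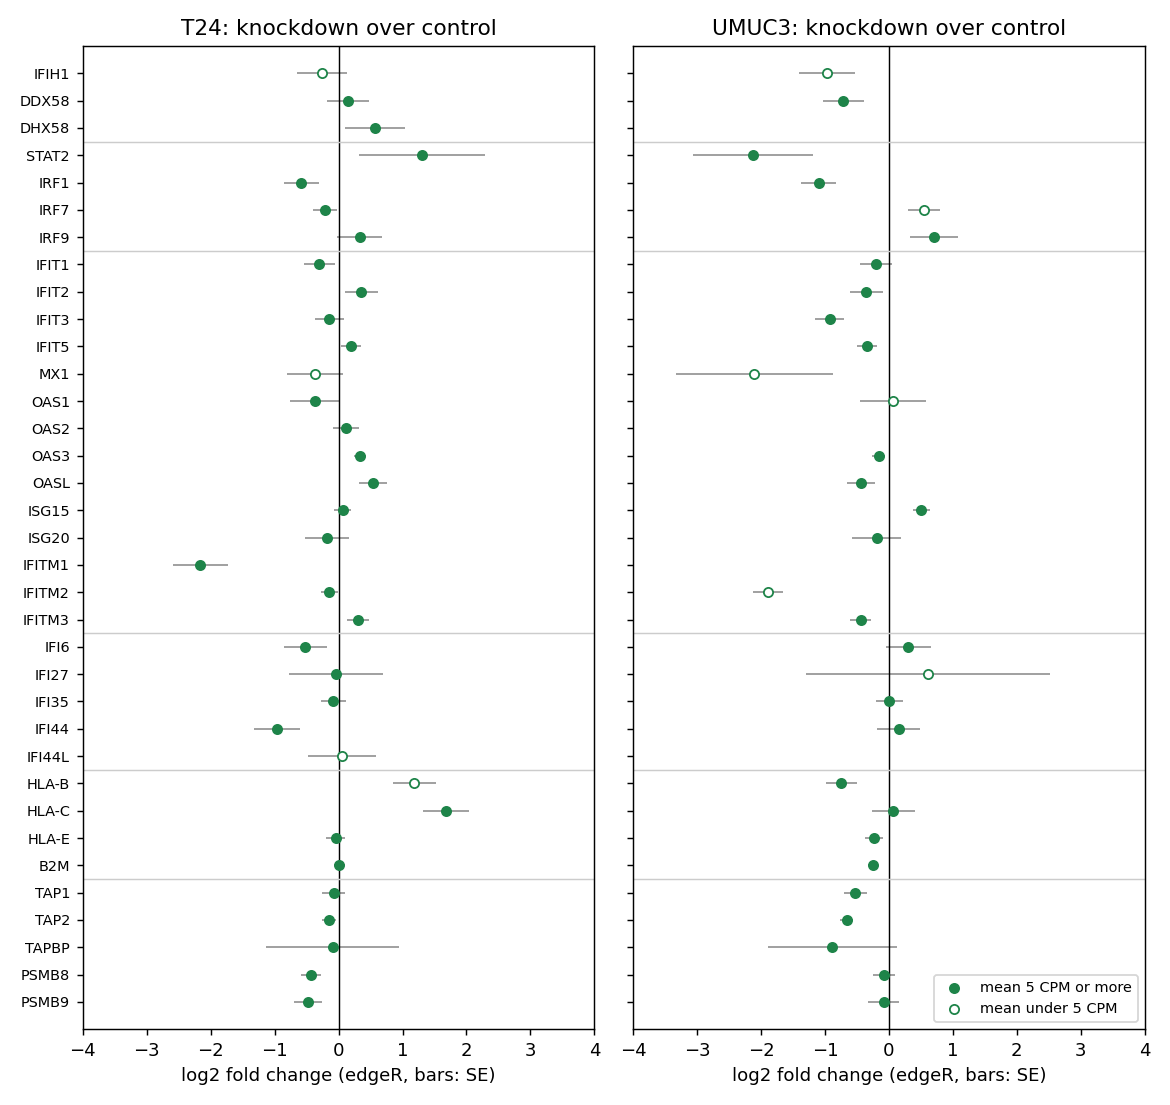
Log2 fold change of knockdown over control with its SE from edgeR, T24 on the left and UMUC3 on the right, for the members with at least 30 counts in the line (35 in T24; DHX58, OAS2, IFITM1 and IFI44L are left out in UMUC3). Each value rests on 2 knockdown libraries and 1 control, and no point passed an adjusted p of 0.05. Most UMUC3 points lie left of 0.

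In UMUC3, most members had less RNA in both knockdown libraries than in the control, and no single member passed the main test. With the same low power, edgeR called 0 of 35 members and 0.647% of all genes (134 genes, and 0 when any of the 4 knockdown libraries was left out). At an unadjusted p under 0.05 there were 8 members (22.9%) against 16.8% of all genes, and DESeq2 called 4 members (11.4%) against 8.28% of all genes. Both knockdown libraries lay below the control in 23 members (65.7%) and above it in 4 (11.4%), where 37.1% and 35.6% of all genes did. The 23 include MX1, OAS2, IFI44L and IFITM2, which are near the floor in UMUC3, and PSMB8 and PSMB9, each with a log2 fold change of -0.08. The median log2 fold change was -0.25 over the members and 0 over all genes, and it was -0.40 over the members without UMUC3 knockdown 2. All members are compared with the same control library, so they are not independent.

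IFITM2 had 0.499 and 0.591 CPM in UMUC3 knockdown libraries against 2.02 CPM in the control (-1.88 ± 0.23, edgeR adjusted p = 0.0702, DESeq2 adjusted p = 3.3e-07). TAP2 had 129 and 132 CPM against 207 CPM in the control (-0.66 ± 0.10, edgeR adjusted p = 0.0954, DESeq2 adjusted p = 0.0019). IRF1 had 10.9 and 15.9 CPM against 28.7 CPM in the control (-1.10 ± 0.28, edgeR adjusted p = 0.189, DESeq2 adjusted p = 0.0353). All knockdown values of these 3 genes lay below their controls, though IFITM2 is near the floor. In the UMUC3 control 88.5% of IFITM2 counts (100 counts) lay in transcript ENST00000602569, which had 22 and 0 counts in the knockdown libraries. Transcript ENST00000616316 had 2 and 32 counts in knockdown libraries and 4 in the control, so the transcripts of IFITM2 did not fall alike.

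IFIT3 had 8.95 and 8.06 CPM in UMUC3 knockdown libraries against 16.2 CPM in the control (-0.93 ± 0.23, edgeR adjusted p = 0.18, DESeq2 adjusted p = 0.0302). STAT2 had 6.47 and 2.63 CPM against 19.8 CPM in the control (-2.13 ± 0.94, edgeR adjusted p = 0.38). TAPBP had 21.4 and 67.0 CPM against 81.6 CPM in the control (-0.88 ± 1.01, edgeR adjusted p = 0.73). The class I chains B2M (188 and 188 CPM against 223 CPM in the control, -0.25 ± 0.08), HLA-E (115 and 93.3 CPM against 122 CPM, -0.23 ± 0.15) and HLA-B (21.7 and 16.7 CPM against 32.1 CPM, -0.74 ± 0.25) also lay below. Their edgeR adjusted p values were 0.27, 0.511 and 0.262. HLA-C had 187 and 120 CPM against 146 CPM in the control, on both sides of it (0.07 ± 0.33, edgeR adjusted p = 0.972). TAP1 stood at 40.1 and 33.5 CPM against 53.1 CPM in the control (-0.53 ± 0.18, edgeR adjusted p = 0.267). PSMB8 (-0.08 ± 0.17) and PSMB9 (-0.08 ± 0.24) stayed near 0.

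The members higher in both UMUC3 knockdown libraries were IRF9, ISG15, IFI6 and IRF7. IRF9 had 15.4 and 21.5 CPM against 11.3 CPM in the control (0.70 ± 0.38, edgeR adjusted p = 0.442). ISG15 had 35.4 and 31.8 CPM against 23.6 CPM in the control (0.51 ± 0.14, edgeR adjusted p = 0.208). IFI6 had 18.7 and 14.2 CPM against 13.3 CPM in the control (0.31 ± 0.35, edgeR adjusted p = 0.725). The leukocyte marker CD68 stood at 54.1 and 51.2 CPM in UMUC3 knockdown libraries and 28.2 CPM in the control, while PTPRC was at 0 in all 3.

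With both lines together (4 knockdown against 2 control libraries), edgeR called 0 of 35 members and 0.0145% of all genes. At an unadjusted p under 0.05 there were 3 members (8.57%), IRF1, IFITM1 and TAP2, against 11.6% of all genes. DESeq2 called 1 member (2.86%), against 4.73% of all genes. This was IRF1, with a log2 fold change of -0.84 ± 0.23 (edgeR adjusted p = 0.291, DESeq2 adjusted p = 0.0427), lower in 4 of 4 knockdown libraries than in the control of their line. The IFITM1 value of -2.13 ± 0.49 rests on T24 alone. In 10 members (28.6%) every knockdown library lay below its control in both lines (IFIH1, IRF1, IFIT1, IFIT3, MX1, IFITM2, HLA-E, TAP2, PSMB8, PSMB9), where 15.1% of all genes did. In 2 members (5.71%), IRF9 and ISG15, every one lay above, against 13.3% of all genes. The leading coding transcript of IRF9 had 708 and 649 counts in the T24 knockdown libraries and 764 in the control. That transcript did not share the rise in T24, while in UMUC3 it had 410 and 980 counts against 167. Of the 10 members, MX1 is near the floor in UMUC3, with 0 and 12 counts in knockdown libraries and 25 in the control. IFITM2 is also low there, with 28 and 36 counts in knockdown libraries and 113 in the control.

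The difference of the knockdown effect between the lines (T24 minus UMUC3) was called by edgeR for 0 members and 0.0579% of all genes. At an unadjusted p under 0.05 there were 7 members (20.0%) against 13.5% of all genes, and DESeq2 called 2 members, IFITM2 and HLA-B (5.71%), against 5.41% of all genes. HLA-B had the knockdown above the control in T24 and below it in UMUC3, with a difference of 1.93 ± 0.42 on the log2 scale (edgeR adjusted p = 0.226, DESeq2 adjusted p = 0.0054). For IFITM2 the difference was 1.74 ± 0.27 (edgeR adjusted p = 0.162, DESeq2 adjusted p = 0.0005). The IFITM2 value rests on low UMUC3 counts, and in the UMUC3 control 88.5% of them lay in transcript ENST00000602569. In 9 members (25.7%) both knockdown libraries lay above the control in T24 and below it in UMUC3 (DDX58, STAT2, IFIT2, IFIT5, OAS2, OAS3, OASL, IFITM3, HLA-B), where 12.1% of all genes did. The reverse held for 2 members (5.71%), IRF7 and IFI6, against 12.3% of all genes. Of the 9 members, OAS2 is near the floor in UMUC3, with 8 and 4 counts in knockdown libraries and 12 in the control. The rise of HLA-B in T24 was not seen in its coding transcripts.

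For many members, counts moved between annotated transcripts from library to library. The composition shift is 0 where 2 libraries of a line spread a gene's counts alike over its transcripts and 1 where they share none, taken for the most different pair. It was 0.2 or more in at least 1 line for 21 members and under 0.2 in both lines for 13. IFITM1 was counted in neither set, since UMUC3 libraries with 0 counts left it without a value there. The share of all genes with such a shift is not given here, so the count does not set these members apart. IFIT2 had the largest shift in T24 (0.94). Its transcript ENST00000611722 held 0.124% of its counts in T24 knockdown 1, against 94.0% in knockdown 2 and 62.1% in the control, although the gene's total differed little (13.5, 12.6 and 10.2 CPM). STAT2 had a shift of 0.54 in T24 and 0.80 in UMUC3. The processed transcript ENST00000556539 held 60.8% of STAT2 counts in T24 knockdown 1 and 55.0% in the UMUC3 control, the highest library of each line, and 3.13% to 14.6% in the other 4. IFITM2 had a shift of 0.419 in T24 and 0.965 in UMUC3, where its counts were few. IFI27 counts in T24 lay in the retained-intron transcript ENST00000612499 for 74.8% to 79.0%. IRF7 had a shift of 0.44 in T24 and 0.83 in UMUC3, and IRF1, OAS3, ISG15, IFITM3, HLA-E, B2M, TAP1 and PSMB9 had shifts under 0.2 in both lines.

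**Figure D5:**
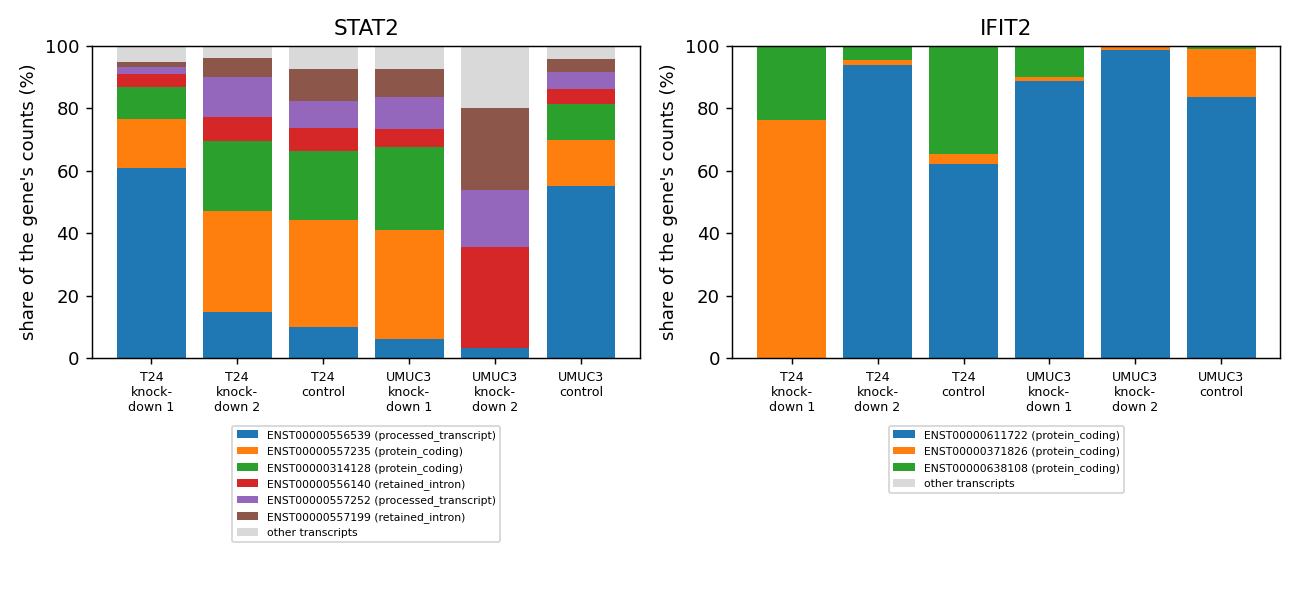
Share of the counts of STAT2 (left) and IFIT2 (right) in each annotated transcript that reached 10% in any library, for the 6 libraries. The leading STAT2 transcript is high in T24 knockdown 1 and in the UMUC3 control, at 60.8% and 55.0%, and IFIT2 counts sit in another transcript in T24 knockdown 1.

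The wider pathway was read from 6 further lists, whose counts stand against 21.3% of all genes called higher and 18.9% called lower in T24. Of the 33 further interferon-induced genes tested, 22 were higher and 2 lower in T24 than in UMUC3 (edgeR adjusted p under 0.05), with a median log2 fold change of 0.89 (0.02 over all genes). TRIM22, a ubiquitin ligase with antiviral activity, had 16.1, 15.7 and 27.5 CPM in T24 and 0, 0 and 0.287 CPM in UMUC3 (edgeR adjusted p = 9.8e-05). GBP3, a guanylate binding protein, had 32.0, 31.6 and 34.8 CPM in T24 and 1.498, 2.58 and 1.97 CPM in UMUC3 (log2 4.02 ± 0.25, edgeR adjusted p = 0.000217). SAMD9 (-1.62 ± 0.21, edgeR adjusted p = 0.00263) and LGALS3BP (-0.74 ± 0.22, edgeR adjusted p = 0.0407) were lower in T24. BST2 (tetherin), named after its values were seen, had 103, 94.6 and 105 CPM in T24 and 0 counts in all UMUC3 libraries, at least 5809-fold higher in T24 against a floor of 3 counts over the UMUC3 libraries.

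Of 12 tested sensors, adaptors and kinases of interferon induction, 5 were higher and 1 lower in T24, against 21.3% and 18.9% of all genes. The list is short and its count was not tested. IKBKE, a kinase of the interferon factors, stood at 15.3 ± 2.08 CPM in T24 and 3.89 ± 0.68 CPM in UMUC3 (SD, n = 3 each; log2 1.97 ± 0.23, edgeR adjusted p = 0.00186), and TLR3, the endosomal sensor of double-stranded RNA, at 4.11 ± 0.35 CPM in T24 and 0.436 ± 0.245 CPM in UMUC3 (3.24 ± 0.39, adjusted p = 0.0021). CGAS, the sensor of cytosolic DNA, was lower in T24 (16.6 ± 3.81 CPM against 37.6 ± 4.66 CPM in UMUC3, SD, n = 3 each; log2 -1.20 ± 0.17, edgeR adjusted p = 0.00349). The interferon genes themselves were near absent: of 8 listed, 3 were in the table and IFNE alone was tested. It had 0.370 to 1.345 CPM in T24 and 0.476 to 1.504 CPM in UMUC3 and was not called.

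Of 15 interferon receptors, JAK kinases and feedback genes, 3 were higher and 3 lower in T24, a share close to the 40.2% of all genes, so the count is no result about the list. IFNLR1, the interferon lambda receptor chain, had 3.77, 5.08 and 8.77 CPM in T24 and 0 counts in UMUC3, at least 338-fold higher in T24 by the same floor (edgeR adjusted p = 0.00247). IFNGR2, a chain of the interferon gamma receptor, was higher in T24 (log2 1.07 ± 0.20, edgeR adjusted p = 0.0101). The feedback inhibitors SOCS1 (-1.51 ± 0.19, edgeR adjusted p = 0.00234) and SOCS3 (-0.67 ± 0.13, edgeR adjusted p = 0.00949) were lower in T24. The interferon alpha and beta receptor genes IFNAR1 and IFNAR2 were not called (edgeR adjusted p = 0.0821 and 0.807).

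Of 16 further class I processing and loading genes, 5 were higher and 4 lower in T24, beside 40.2% of all genes called in either direction. PDIA3, a partner of tapasin, had 1073 ± 193 CPM in T24 and 328 ± 36.7 CPM in UMUC3 (SD, n = 3 each; log2 1.70 ± 0.09, edgeR adjusted p = 0.000108), and HLA-F had 9.13 ± 0.52 CPM in T24 and 0.812 ± 0.476 CPM in UMUC3 (3.53 ± 0.36, adjusted p = 0.00122). RFX5, a factor of the class I and class II promoters, was lower in T24 (-0.80 ± 0.12, edgeR adjusted p = 0.00453), as was the chaperone CANX (-0.55 ± 0.12, edgeR adjusted p = 0.0147). The constitutive proteasome beta subunits gave 1 call in 7: PSMB1 was lower in T24 (-0.78 ± 0.09, edgeR adjusted p = 0.00148).

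Across these lists 1 gene passed the threshold for the knockdown in UMUC3 and 0 in T24, where edgeR called 0.647% of all genes in UMUC3 and 0.135% in T24. CALR, a chaperone of the class I loading complex, rose in UMUC3, with 1110 and 994 CPM in knockdown libraries against 442 CPM in the control (log2 1.25 ± 0.10, edgeR adjusted p = 0.0449). In T24 CALR had 1224 and 1156 CPM in knockdown libraries against 880 CPM in the control (0.43 ± 0.10, edgeR adjusted p = 0.228). The difference between the lines was -0.82 ± 0.13 (edgeR adjusted p = 0.164). Without any 1 of the 4 knockdown libraries no gene was called in UMUC3, CALR included.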

How the data were processed

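RNA was sequenced from 6 libraries of 2 human bladder cancer lines. The authors deposited raw counts for 136953 transcripts, not normalised. The submitters' processing notes name StringTie 1.3.3b, HISAT2 2.1.0, FastQC 0.11.5 and build hg38, without saying how each was applied. Strand and RNA selection are not given in the sources used here. Rows naming no gene (15038 transcripts, 14.9% to 16.1% of each library) stayed out of library sizes and tests. The others were summed to 30717 genes. Of the 209 member transcripts 202 had identical coordinates in GENCODE 29. Total counts per library were 65111683 to 72362436. Intervals and floors cover counting error only.

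A gene needed 10 counts in 2 libraries and 30 over all to be tested. The test was edgeR 4.0.16 in R 4.3.3 (TMM, robust quasi-likelihood fit, F test, Benjamini-Hochberg adjustment over all 20721 genes at 0.05). A model of line plus knockdown (residual df 3) gave the tests of both lines and of line against line; a model of 4 groups (residual df 2) gave those within each line and of their difference. The knockdown pairs differed by more than sampling noise (chi-square per degree of freedom 112.26 in T24 and 108.22 in UMUC3), and each library was therefore kept; this does not show separate cultures. Alternatives were DESeq2 1.42.0 as a test and for size factors, a replicate block, the highest transcript only, another library size, the earlier edgeR method, another filter and each library left out. The tests were checked on simulated counts: those within a line missed the changed genes, and those of both lines and of line against line called more unchanged genes than the threshold implies. Motifs were searched in RefSeq windows.

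The members and lists were chosen with earlier results of these data known. Values per library are given for members called in any comparison, for up to 4 members in each direction per knockdown comparison (mean of at least 5 CPM, both knockdown libraries on 1 side), for up to 6 in each direction between the lines, and for the class I genes. From each further list up to 2 called genes in each direction are named, by the smallest p. The siRNA numbers are not known to pair the libraries. The level of circPTK2 was not analysed here.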

Additional observations from a re-analysis of the deposited data

How the results depend on the processing

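Between the lines, the 24 member calls were 22 to 26 in the fits that kept all 6 libraries and summed transcripts, 20 to 25 without 1 library and 18 with the highest transcript only, where 4757 of all genes were called, against 8329 in the sums. The median log2 fold change there ranged from 1.00 to 1.28 without 1 library. Without 1 library TAPBP ranged from -1.13 to 0.0614 (above 0 without UMUC3 knockdown 2) and IFIT1 from -0.035 to 0.133 (below 0 without T24 knockdown 2), and IFIT2 was at -0.43 with the highest transcript; none of the 3 was called. ISG20, OAS1, IFI44, TAP2 and IFIT5 lost their call with the highest transcript only; IRF9 and TAP1 lost theirs in 9 of 14 alternatives.

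For the knockdown, counts of all genes depend on the test. DESeq2 called 980 genes in T24, 1715 in UMUC3, 981 in both lines and 1120 for the difference, and 3, 4, 1 and 2 members. The earlier edgeR method, added after seeing the data, called 2, 13 and 5 genes in T24, UMUC3 and the difference. With the highest transcript only the counts were 11, 16, 0 and 22. With at least 3 counts in total, also added later, they were 8 in both lines and 35 for the difference, and DESeq2 size factors gave 5 for the difference. The planned fit without a filter could not be fitted. Without 1 library they ranged from 0 to 25 in T24, 0 to 135 in UMUC3, 0 to 135 in both lines and were 0 for the difference without any knockdown library (2155 to 2592 genes at an unadjusted p under 0.05). With the control of 1 line left out, the count for both lines rests on the knockdown effect of the other line alone. The member median was -0.33 in UMUC3 with the highest transcript, -0.40 to -0.246 there without 1 library, and 0.376 to 0.512 for the difference.

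With a replicate block for the siRNA numbers, edgeR called 0 genes in each knockdown comparison, with numbers from titles or columns (2174 and 1802 genes at an unadjusted p under 0.05 in T24, 2975 and 2418 in UMUC3, 1901 and 1780 in both lines, 2345 and 1894 for the difference), and 22 and 23 members between the lines. The correlation of the deviations of equal-numbered libraries was -0.001379 with the titles and 0.001379 with the columns, so the numbers are not known to pair libraries.

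Under the highest transcript B2M (-0.00785), TAP2 (0.31), HLA-B (0) and HLA-C (0) in T24 differed in sign from the sums, the HLA transcripts being at 0 there. Without 1 library B2M in T24 ranged from -0.0427 to 0.0684 and TAPBP from -1.22 to 0.54 (the sign turned without T24 knockdown 2), and HLA-C in UMUC3 from -0.28 to 0.357 (below 0 without UMUC3 knockdown 1). The cause was not tested for the other changes. A control of 1 library per line limits each knockdown value.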
